A study of Mus musculus with 12 samples.

Results

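The receptors for the Fc part of IgG and the proteins that carry their signal into the cell were followed across 4 groups of transduced mouse bone marrow. The genes were chosen by symbol: the activating receptors Fcgr1, Fcgr3 and Fcgr4, the inhibitory receptor Fcgr2b, the adaptor chains Fcer1g and Tyrobp, and the kinase Syk. All 7 were present among the 19910 genes of the count table, and all 7 passed the filter on low counts that left 10993 genes for testing.

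RNA was sequenced from 12 libraries, 3 per group, of cells that the labels call murine leukemia cells, with bone marrow of strain C57Bl/6 as the source. Marrow from female mice aged 6 to 10 weeks had been transduced with retrovirus collected from 293T17 packaging cells, a human embryonic kidney line. Every group received a pair of vectors. The empty-vector group received 2 empty vectors, the SETBP1 group received mutant SETBP1 (D868N) with an empty vector, the NRAS group received an empty vector with mutant NRAS (G12D), and the double-mutant group received both mutants. The protein of SETBP1 binds DNA in the nucleus, and that of NRAS is a membrane-bound GTPase that feeds the MAPK cascade. The series asks whether mutant SETBP1 strengthens the MAPK activation that mutant NRAS drives. The labels do not say whether replicates were separate mice, transductions or cultures, so p-values measure the spread between these libraries, which may be technical.

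Fc gamma receptors let myeloid cells respond to particles and complexes coated with antibody. The activating receptors pair with a dimer of Fcer1g, whose tyrosine motif (ITAM) recruits Syk once a Src-family kinase has phosphorylated it. Fcgr2b carries an inhibitory motif (ITIM) in its own tail and recruits the phosphatase encoded by Inpp5d, so the balance between activating receptors and Fcgr2b sets the threshold of the cell. Tyrobp is a second ITAM chain that serves other myeloid receptors, among them the Trem family.

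In the mm10 genome, 4 of the genes lie close together on chromosome 1. Fcgr2b spans chr1:170958617-170976547 on the minus strand, Fcgr4 spans chr1:171018920-171029761 on the plus strand, Fcgr3 spans chr1:171051174-171064935 on the minus strand, and Fcer1g spans chr1:171229572-171234365 on the minus strand. The gaps between them are 42372 bases, 21412 bases and 164636 bases in that order. Fcgr1 lies apart at chr3:96282909-96293969 on the minus strand. Tyrobp lies at chr7:30413760-30417585 and Syk at chr13:52583173-52648792, both on the plus strand.

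The receptors are paralogs, and how far their reads can be told apart bears on every comparison of Fcgr3 with Fcgr2b. Exons of Fcgr2b also overlap those of the annotated gene Gm38204. Aligned over 787 bases, the coding sequences of Fcgr3 and Fcgr2b were 83.7% identical, while the other receptor pairs were between 58.7% and 63.3% identical. Of the distinct words of 50 bases in Fcgr3 transcripts, 10.2% also occurred in Fcgr2b, and no such word was shared between any other pair of the 7 genes. The longest identical stretch of the coding sequences is shown because reads that fall wholly inside it cannot be assigned. It covers 129 bases, at positions 278 to 406 of the Fcgr2b coding sequence and 263 to 391 of that of Fcgr3, counted from the start codon.
Fcgr2b and Fcgr3, shared coding stretch: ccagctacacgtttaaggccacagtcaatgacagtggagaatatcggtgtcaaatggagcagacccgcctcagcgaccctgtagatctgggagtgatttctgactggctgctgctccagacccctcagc
How such reads were counted is not given in the sources used here, so the counts of Fcgr3 and Fcgr2b are uncertain to that extent.

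The sequences just before the start sites of the 3 activating receptors are shown because these genes did not move alike, as described further on. Each window holds the 150 bases before a RefSeq start in GRCm38.p6, 5′ to 3′ on the gene's own strand. Capitals mark TTCCTC, which is the core bound by PU.1, GAGGAA, read on the other strand, and in Fcgr1 also TTCNNNGAA, the GAS element bound by STAT proteins.
Fcgr1, chr3:96293970-96294119, minus strand: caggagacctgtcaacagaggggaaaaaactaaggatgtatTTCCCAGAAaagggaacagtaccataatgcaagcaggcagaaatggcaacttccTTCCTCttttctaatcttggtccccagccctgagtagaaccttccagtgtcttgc
Fcgr3, chr1:171059404-171059553, minus strand: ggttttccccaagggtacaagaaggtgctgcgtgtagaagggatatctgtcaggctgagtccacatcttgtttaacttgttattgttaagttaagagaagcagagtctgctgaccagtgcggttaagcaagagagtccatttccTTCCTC
Fcgr4, chr1:171018776-171018925, plus strand: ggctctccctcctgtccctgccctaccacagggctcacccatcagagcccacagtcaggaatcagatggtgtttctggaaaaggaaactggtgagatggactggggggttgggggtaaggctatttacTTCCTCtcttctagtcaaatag
GAGGAA, TTCNNNGAA and TGANTCA were searched on both strands in the windows of 6 of the 7 genes, and those of Fcgr2b, Fcer1g and Syk, not shown, held none of them. GAGGAA occurred once in each of the 3 windows, ending 50 bases before the start in Fcgr1, 1 base before it in Fcgr3 and 17 bases before it in Fcgr4. It occurs in 14.5% of 32851 promoter windows of the same length. TTCNNNGAA occurred in the Fcgr1 window only, 109 to 101 bases before the start, against 4.09% of all windows. TGANTCA, the AP-1 site, was in none of the 3 windows and is in 4.24% of all windows. The Fcgr3 window lies inside the longer gene span of the annotation used for positions, so another start of that gene is not covered. The marked matches do not overlap each other, and the last 6 bases of the Fcgr4 window are already exonic in that annotation. Of the windows not shown, 103 bases of that of Fcgr2b, 16 of that of Fcer1g and all 150 of that of Syk are exonic there. Only 1 of 2 listed starts of Syk was searched. The lack of matches in these windows is thus not that of upstream sequence alone. All matches given here describe letters, not binding.

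Library totals ran from 7085894 to 8864919 counts, with 11835 to 12800 genes detected per library. Nras stood at 86.5 ± 5.75 normalised CPM (counts scaled by library size and TMM factors; SD, n = 3) with empty vectors and 88.2 ± 3.78 with SETBP1, against 1520.3 ± 166 with NRAS and 1559 ± 35.8 with both mutants. Setbp1 had 0 counts in the 6 libraries without its vector, 5 to 7 in the SETBP1 libraries and 11 to 17 in the double-mutant libraries. SETBP1 replicate 3 stood apart: its correlation with the other libraries of its group across genes was 0.932 to 0.939, against 0.980 to 0.988 for the other pairs of replicates. All 10 monocyte and macrophage markers examined were detected, with summed levels of 4175 to 6002 CPM over the 12 libraries. Ly6c2 was the largest part of these sums, at 15614 to 33142 counts per library, while Cx3cr1 had 1 to 37. Cd3e of T cells, Pax5 of B cells and Ncr1 of NK cells had 0 counts in every library. Other listed markers of B and NK cells did have counts: 52 to 189 per library for Cd79b, 3 to 47 for Klrk1 and 356 to 3331 for Nkg7.

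In the plot of levels by library, Fcgr4 dropped wherever mutant NRAS was present, Fcgr1 was higher with mutant SETBP1 than in its matching group, and the adaptor Fcer1g and the inhibitory receptor Fcgr2b had their highest group means with both mutants. Changes are log2 fold changes from edgeR's quasi-likelihood test with Benjamini-Hochberg adjustment over all 10993 genes, and a gene is said to rise or fall where its adjusted p is under 0.05. Against empty vectors, SETBP1 moved 2 of the 7 genes, Fcgr1 and Fcer1g, both upward, where 14.9% of all genes tested passed (8.31% upward). NRAS moved 1 of 7, Fcgr4, downward, where 32.5% of all genes passed (15.5% downward). Both mutants together moved 4 of 7, Fcgr2b and Fcer1g upward and Fcgr4 and Syk downward, where 40.6% of all genes passed (20.8% upward, 19.8% downward).

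The added effect of each mutant on top of the other involved fewer of the genes for SETBP1 than for NRAS, as it did among all genes. Adding SETBP1 to NRAS moved 1 of 7, Fcgr1, upward, where 1.91% of all genes passed (0.528% upward). Adding NRAS to SETBP1 moved 3 of 7, Fcgr1, Fcgr4 and Tyrobp, all downward, where 42.4% of all genes passed (21.5% downward). The interaction, which asks whether the SETBP1 change differs with NRAS present, was past the threshold for 0 of 7 genes with edgeR, DESeq2 or limma-voom, none had an unadjusted p under 0.05 in edgeR, and 0.0455% of all genes passed. Its 95% interval for Fcgr1 ran from -0.68 to 0.45 on the log2 scale and that for Fcgr4 from -0.95 to 0.43. Differences between the backgrounds within those bounds thus remained compatible with the data. These comparisons share libraries, and each is given by its own values.

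Without SETBP1 replicate 3, the counts of moved genes differed, also where no SETBP1 library is compared. The spread, the scaling and the set of genes tested (11112 in place of 10993) all come from the libraries in the fit, and their parts were not tested. NRAS against empty then moved 5 of 7, with Fcgr1, Fcgr3, Fcgr4 and Syk lower and Fcer1g higher, where 47.0% of all genes passed. Adding SETBP1 to NRAS moved 3 of 7, Fcgr1, Fcgr2b and Fcer1g, all upward, where 7.52% of all genes passed (3.21% upward). Adding NRAS to SETBP1 moved 5 of 7, with Fcgr2b and Fcer1g higher and Fcgr1, Fcgr4 and Syk lower, where 46.5% of all genes passed. Both mutants against empty moved 5 of 7, the additional gene being Fcgr3, which was lower, where 53.7% of all genes passed. SETBP1 against empty still moved 2 of 7, where 15.3% of all genes passed, but these were Fcgr1 upward and Fcgr3 downward, since Fcer1g no longer passed.

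**Figure D1:**
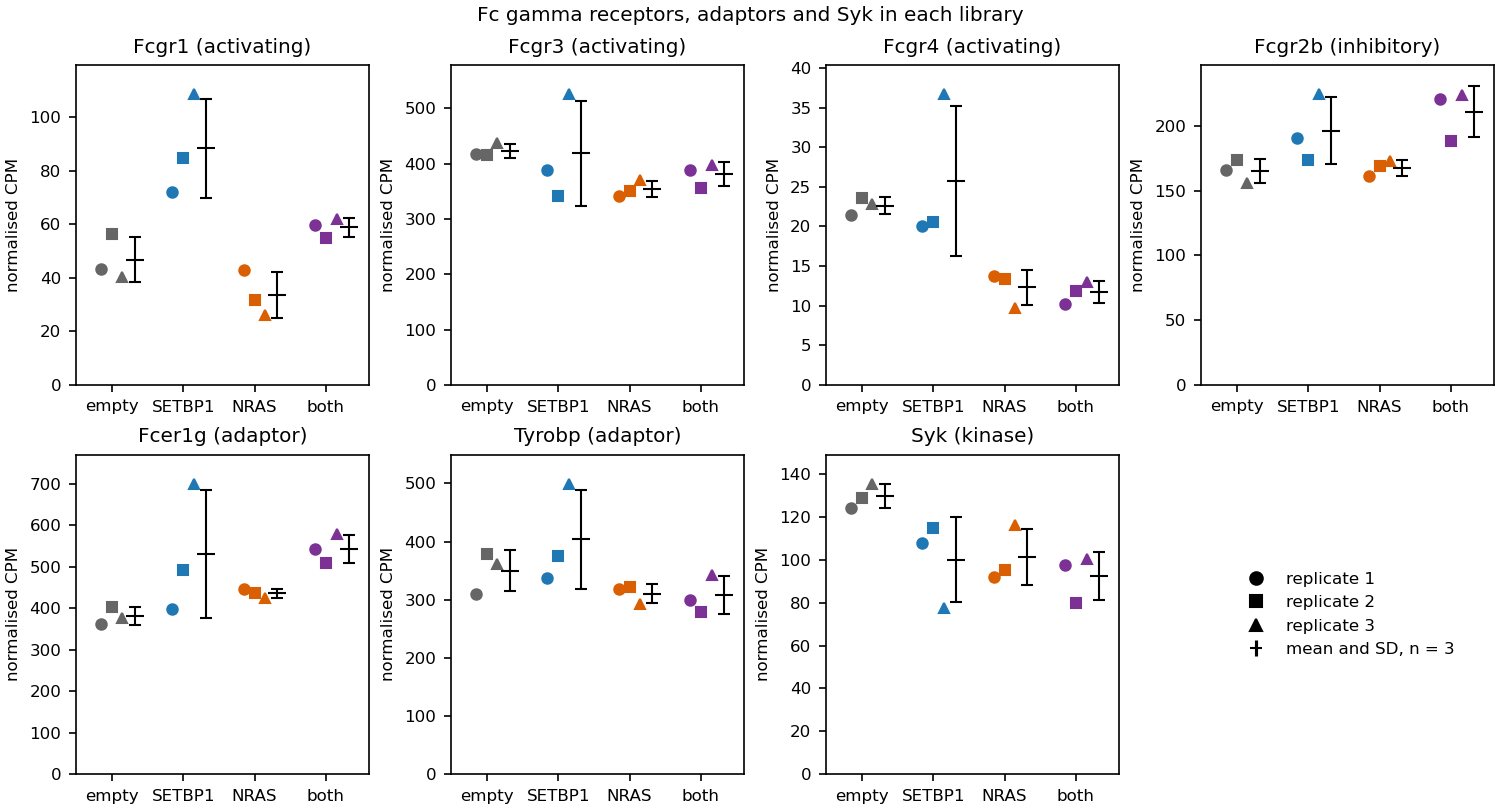
Level of each of the 7 genes in normalised CPM (y axis, linear, from 0) in the 3 libraries of each group (x axis; circle, square and triangle for replicates 1, 2 and 3), with the mean and SD of each group as bars. The NRAS and double-mutant libraries of Fcgr4 lie between 9.76 and 13.7 CPM, below all 6 other libraries, and SETBP1 replicate 3 is the highest library of Fcgr1, Fcgr3, Fcgr4, Fcgr2b, Fcer1g and Tyrobp and the lowest of Syk.

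Fcgr1 encodes the high-affinity receptor, which can bind single IgG molecules. In empty-vector replicates 1, 2 and 3 it stood at 43.5, 56.5 and 40.5 normalised CPM, and in the SETBP1 replicates at 72.3, 84.7 and 108.6. In the NRAS replicates it stood at 43.1, 31.8 and 26.2, and in the double-mutant replicates at 59.9, 54.8 and 61.9. All SETBP1 libraries were above all others, all double-mutant libraries were above all NRAS libraries, and the empty-vector libraries overlapped both the NRAS and the double-mutant libraries. SETBP1 alone raised Fcgr1 by a log2 change of 0.92 (SE 0.18), a 1.89-fold difference, with an adjusted p of 0.00811. Without SETBP1 replicate 3 the change was 0.74 with an adjusted p of 0.00336, but the call was lost without empty-vector replicate 3 (adjusted p 0.0504) and in a fit of only the 6 libraries compared (adjusted p 0.0582).

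On top of NRAS, SETBP1 raised Fcgr1 by 0.80 (SE 0.19), a 1.75-fold difference, with an adjusted p of 0.0475 by edgeR's quasi-likelihood test. This call sat at the threshold. It was lost in 12 of 21 alternative settings, while the direction held in all 21. Among them were limma-voom (adjusted p 0.0579) and the fits without any 1 of the double-mutant libraries, NRAS replicates 2 and 3, empty-vector replicates 1 and 3 or SETBP1 replicate 2. The largest of these p-values, 0.226, came without NRAS replicate 3, where the change was 0.65. NRAS on top of SETBP1 lowered Fcgr1 by a log2 change of -0.59 (SE 0.18) with an adjusted p of 0.0190, and the value was -0.41 (adjusted p 0.0334) without SETBP1 replicate 3. That call was lost without double-mutant replicate 1 (adjusted p 0.0514) or replicate 2 (adjusted p 0.0731). NRAS alone gave -0.47 (SE 0.19, adjusted p 0.0717) and both mutants gave 0.33 (SE 0.19, adjusted p 0.177) against empty vectors, neither past the threshold. The fall with NRAS alone did pass in 5 of 21 alternative settings. Among them were edgeR with library totals only (adjusted p 0.0267) and with only the groups compared (adjusted p 0.0187). The rise with both mutants passed in 1 setting, with only the groups compared (0.32, adjusted p 0.0190).

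Fcgr4 encodes an activating receptor of intermediate affinity found on mouse monocytes, macrophages and neutrophils. It stood at 21.5, 23.6 and 22.8 normalised CPM in the empty-vector replicates and at 20.1, 20.5 and 36.7 in the SETBP1 replicates. In the NRAS replicates it stood at 13.7, 13.4 and 9.76, and in the double-mutant replicates at 10.2, 11.9 and 13.1. The 6 libraries with mutant NRAS lay below the 6 without it, and within each of these sets the groups overlapped, SETBP1 replicate 3 alone lying far above its group. The counts behind these values ran from 73 to 310 per library.

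NRAS alone lowered Fcgr4 by a log2 change of -0.88 (SE 0.23), to 0.543 of the empty-vector level, with an adjusted p of 0.00888 by edgeR's quasi-likelihood test. NRAS on top of SETBP1 lowered it by -1.14 (SE 0.23), to 0.455, with an adjusted p of 0.00133, and by -0.79 (adjusted p 0.000610) without SETBP1 replicate 3. Both mutants against empty gave -0.95 (SE 0.23, adjusted p 0.00452). These 3 falls passed the threshold in all 21 alternative settings. SETBP1 gave 0.19 (95% interval -0.28 to 0.66) alone and -0.07 (95% interval -0.58 to 0.44) on top of NRAS, so changes within those bounds in either direction remained compatible with the data. With SETBP1 alone the sign turned without SETBP1 replicate 3, to -0.15 (adjusted p 0.544).

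Fcgr3 encodes the low-affinity activating receptor and was the most abundant of the 4 receptors per kilobase of exon in every group. It stood at 417, 415 and 438 normalised CPM in the empty-vector replicates, 389, 342 and 525 with SETBP1, 342, 351 and 371 with NRAS, and 388, 356 and 398 with both mutants. The NRAS and double-mutant libraries were all below the empty-vector libraries, while the SETBP1 libraries spread across the range of all other groups. No comparison passed the threshold: the log2 change was -0.25 (95% interval -0.51 to 0.003, adjusted p 0.122) for NRAS alone, -0.02 (-0.27 to 0.24, adjusted p 0.941) for SETBP1 alone and -0.15 (-0.41 to 0.11, adjusted p 0.335) for both. Without SETBP1 replicate 3 these values were -0.25 (adjusted p 0.00247), -0.21 (adjusted p 0.0460) and -0.15 (adjusted p 0.0479), all past the threshold. The calls for NRAS alone and for both mutants were also gained with all libraries present, with library totals only (-0.35, adjusted p 0.0157, and -0.27, adjusted p 0.0395) and with only the groups compared (-0.26, adjusted p 0.00140, and -0.16, adjusted p 0.0151). On top of the other mutant, SETBP1 gave 0.10 (adjusted p 0.889) and NRAS gave -0.14 (adjusted p 0.384) by edgeR's quasi-likelihood test.

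Fcgr2b is the sole inhibitory receptor of the family. It stood at 166, 174 and 156 normalised CPM in the empty-vector replicates, 190, 174 and 224 with SETBP1, 161, 169 and 173 with NRAS, and 221, 189 and 224 with both mutants. The double-mutant libraries were all above the empty-vector and NRAS libraries, and the empty-vector and NRAS libraries overlapped. Both mutants raised Fcgr2b against empty by a log2 change of 0.35 (SE 0.10), a 1.28-fold difference, with an adjusted p of 0.010, a call lost without empty-vector replicate 3 (adjusted p 0.0541).

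SETBP1 alone gave 0.25 (SE 0.10, adjusted p 0.0939) for Fcgr2b and SETBP1 on top of NRAS gave 0.33 (SE 0.10, adjusted p 0.123), neither past the threshold by edgeR's quasi-likelihood test, although the groups did not overlap in either comparison. The change on top of NRAS passed in edgeR without SETBP1 replicate 3 (0.33, adjusted p 0.00602) and with only the groups compared (0.33, adjusted p 0.00710). That with SETBP1 alone passed in 1 of 21 alternative settings, edgeR without SETBP1 replicate 2 (0.34, adjusted p 0.0408). NRAS alone gave 0.02 (95% interval -0.19 to 0.23), and its sign turned with the scaling, to -0.07 with library totals only. NRAS on top of SETBP1 gave 0.10 (95% interval -0.10 to 0.31, adjusted p 0.413), with 0.21 (adjusted p 0.0369, past the threshold) without SETBP1 replicate 3 and 0.011 without SETBP1 replicate 2.

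**Figure D2:**
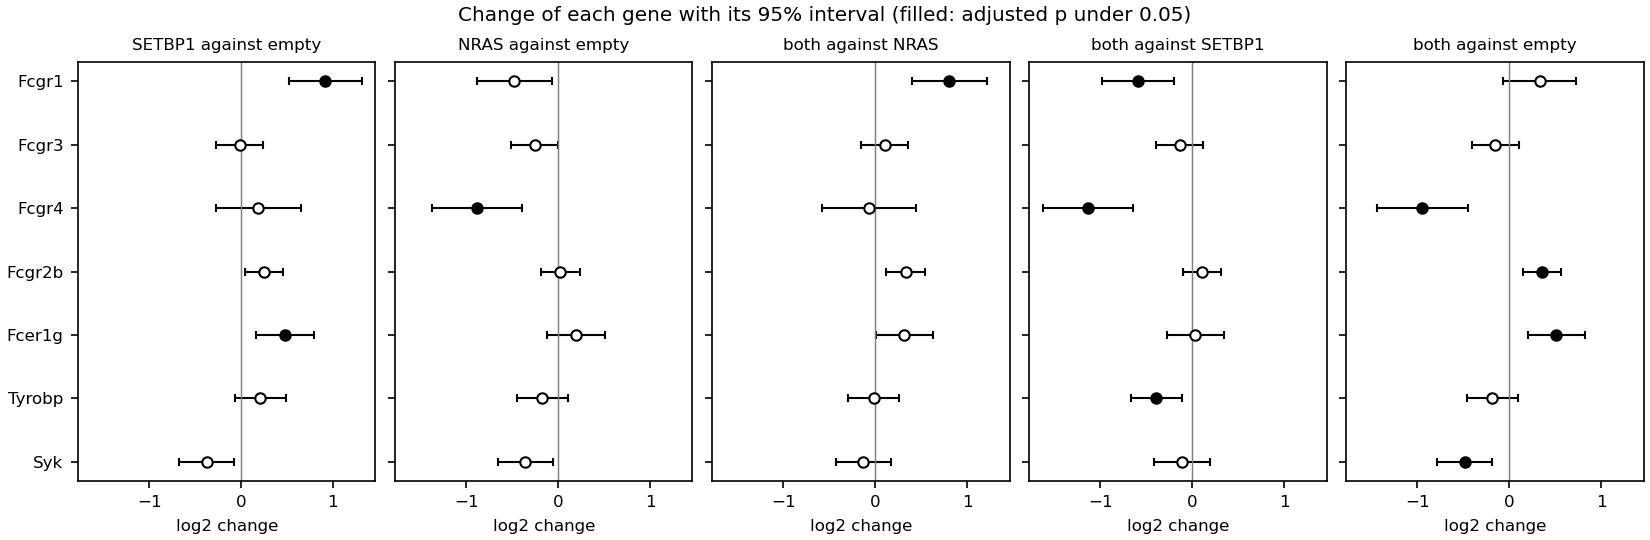
Log2 change of each gene (x axis) with its 95% interval from the edgeR fit, 1 panel per comparison. Filled points have an adjusted p under 0.05. Fcgr4 is filled in the 3 panels where NRAS is added or both mutants are set against empty vectors, and Fcgr1 is filled to the right where SETBP1 is added (0.92 and 0.80).

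The activating receptors were then set against Fcgr2b within each library, where library scaling cancels. The ratio is of counts and its level depends on transcript length, so only its change between groups was read. The test was an exact permutation test, two-sided, of the labels of one mutant within the 2 backgrounds of the other. It has 400 arrangements and can give no p under 0.005. All 6 tests were adjusted together by Benjamini-Hochberg.

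Fcgr3 counts were 2.52, 2.39 and 2.81 times those of Fcgr2b in the empty-vector replicates, 2.04, 1.96 and 2.34 times with SETBP1, 2.12, 2.08 and 2.14 times with NRAS, and 1.76, 1.89 and 1.78 times with both mutants. All empty-vector libraries lay above all libraries of the other groups, and all double-mutant libraries lay below. With NRAS the Fcgr3 to Fcgr2b ratio fell to 0.841 of its level without it (log2 change -0.25, exact permutation p = 0.005, adjusted p = 0.0075), and with SETBP1 to 0.838 (log2 change -0.25, exact permutation p = 0.005, adjusted p = 0.0075). Both calls held whichever library was left out, with log2 changes from -0.28 to -0.21 for NRAS and from -0.29 to -0.22 for SETBP1. The part of reads shared by these paralogs, described above, was not tested.

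The Fcgr1 to Fcgr2b ratio moved in opposite directions with the 2 mutants. Its replicates were 0.263, 0.325 and 0.260 with empty vectors, 0.380, 0.486 and 0.484 with SETBP1, 0.267, 0.188 and 0.152 with NRAS, and 0.271, 0.291 and 0.276 with both mutants. SETBP1 libraries lay above all others, and double-mutant libraries fell within the range of the empty-vector libraries. The ratio rose 1.501-fold with SETBP1 (log2 change 0.59, exact permutation p = 0.005, adjusted p = 0.0075) and fell to 0.662 with NRAS (log2 change -0.60, exact permutation p = 0.015, adjusted p = 0.018).

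The Fcgr4 to Fcgr2b ratio fell with NRAS. Its replicates were 0.130, 0.136 and 0.147 with empty vectors, 0.106, 0.118 and 0.163 with SETBP1, 0.0853, 0.0793 and 0.0564 with NRAS, and 0.0462, 0.0631 and 0.0583 with both mutants. No library with NRAS reached the lowest library without it. The ratio fell to 0.482 with NRAS (log2 change -1.05, exact permutation p = 0.005, adjusted p = 0.0075). With SETBP1 the log2 change was -0.25 (exact permutation p = 0.13, adjusted p = 0.13), and without SETBP1 replicate 3 it was -0.34 (adjusted p = 0.025).

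**Figure D3:**
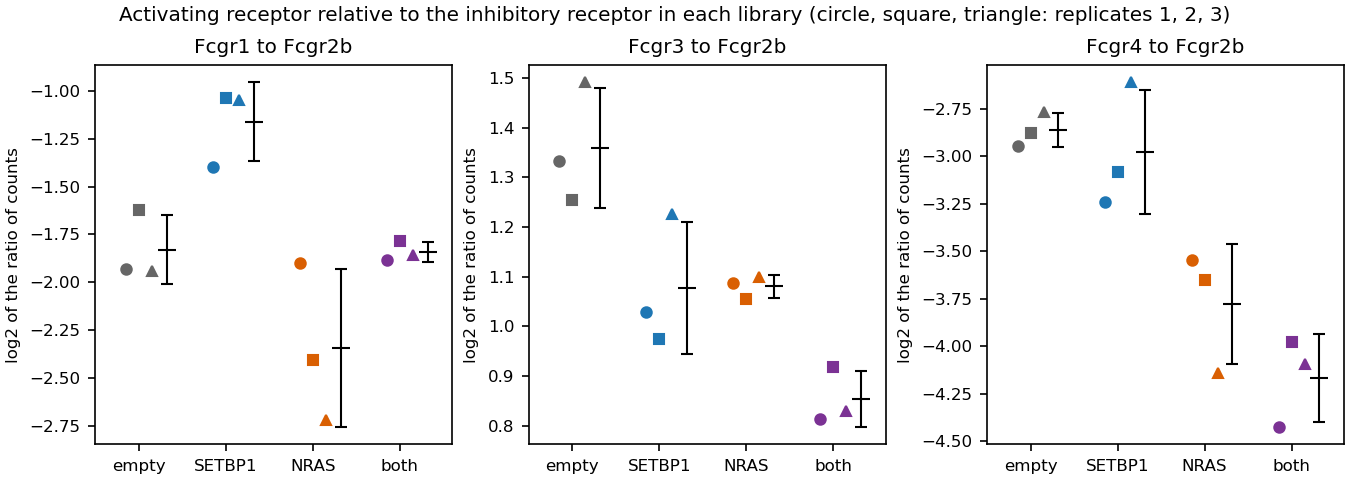
Log2 of the ratio of counts of each activating receptor to Fcgr2b (y axis, its own range in each panel) in each library, by group (x axis), with mean and SD as bars. The Fcgr3 to Fcgr2b ratio is highest with empty vectors (mean ratio 2.57) and lowest with both mutants (mean ratio 1.81), and the Fcgr1 to Fcgr2b ratio is highest with SETBP1.

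Fcer1g encodes the common ITAM chain on which Fcgr1, Fcgr3 and Fcgr4 depend for their surface level and signal. It stood at 362, 403 and 377 normalised CPM in the empty-vector replicates, 399, 493 and 700.3 with SETBP1, 445, 437 and 425 with NRAS, and 542, 510 and 578 with both mutants. All NRAS and double-mutant libraries were above the empty-vector libraries, all double-mutant libraries were above the NRAS libraries, and the SETBP1 libraries ran from within the empty-vector range to the highest value of all. Both mutants raised Fcer1g against empty by a log2 change of 0.51 (SE 0.15), a 1.43-fold difference, with an adjusted p of 0.0123, lost without empty-vector replicate 1 (adjusted p 0.0524).

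SETBP1 alone raised Fcer1g by 0.48 (SE 0.15, adjusted p 0.0431 by edgeR's quasi-likelihood test), but this call was lost in 14 of 21 alternative settings, among them every fit without 1 library except those that dropped SETBP1 replicate 1 or 2. The change was 0.23 with an adjusted p of 0.0595 when SETBP1 replicate 3 was dropped. NRAS alone gave 0.19 (SE 0.15, adjusted p 0.341). SETBP1 on top of NRAS gave 0.32 (SE 0.15, adjusted p 0.417), and the same change had an adjusted p of 0.00726 without SETBP1 replicate 3. In edgeR with only the groups compared, the change with NRAS alone passed (0.18, adjusted p 0.0156). So did that with SETBP1 on top of NRAS (0.32, adjusted p 0.00186). NRAS on top of SETBP1 gave 0.03 (95% interval -0.28 to 0.35), and its sign turned to -0.03 with library totals only. The same change was 0.29 with an adjusted p of 0.00639 when SETBP1 replicate 3 was dropped.

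Tyrobp, the other ITAM chain, stood at 310, 378 and 362 normalised CPM in the empty-vector replicates, 337, 375 and 499.8 with SETBP1, 318, 321 and 292 with NRAS, and 300, 279 and 343 with both mutants. The groups overlapped in every comparison except where SETBP1 libraries were set against NRAS libraries, a pair not tested. NRAS on top of SETBP1 lowered Tyrobp by a log2 change of -0.39 (SE 0.13) with an adjusted p of 0.0252, but without SETBP1 replicate 3 the change was -0.21 and the call was lost (adjusted p 0.0614), as it was without double-mutant replicate 1 (adjusted p 0.0780) or replicate 2 (adjusted p 0.106). In the edgeR fit of all 12 libraries no other comparison of Tyrobp passed. SETBP1 alone gave 0.21 (adjusted p 0.270), NRAS alone -0.17 (adjusted p 0.337), both mutants -0.19 (adjusted p 0.273) and SETBP1 on top of NRAS -0.01 (adjusted p 0.988). With only the groups compared, edgeR did call the falls with NRAS alone (-0.18, adjusted p 0.0486) and with both mutants (-0.20, adjusted p 0.0296). The fall with both mutants also passed in edgeR with library totals only (-0.31, adjusted p 0.0375).

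Syk, the kinase that binds phosphorylated ITAMs, fell with both mutants against empty, the 1 comparison of Syk that passed in the edgeR fit of all 12 libraries. It stood at 124, 129 and 136 normalised CPM in the empty-vector replicates, 108, 115 and 77.5 with SETBP1, 92.2, 95.1 and 116 with NRAS, and 97.6, 79.9 and 100.4 with both mutants. Every library with a mutant lay below every empty-vector library, and the 3 mutant groups overlapped. Both mutants lowered Syk by a log2 change of -0.49 (SE 0.14), to 0.714 of the empty-vector level, with an adjusted p of 0.0130, a call lost without double-mutant replicate 2 (adjusted p 0.0692). SETBP1 alone gave -0.38 (SE 0.14, adjusted p 0.0811) and NRAS alone gave -0.36 (SE 0.14, adjusted p 0.0651). The latter passed in 5 of 21 alternative settings. These included edgeR without SETBP1 replicate 3 (-0.35, adjusted p 0.00407) and with library totals only (-0.45, adjusted p 0.0397). Another was edgeR with only the groups compared (-0.36, adjusted p 0.00267). On top of the other mutant, SETBP1 gave -0.13 (adjusted p 0.872) and NRAS gave -0.11 (adjusted p 0.558) by edgeR's quasi-likelihood test. The latter was -0.26 and passed without SETBP1 replicate 3 (adjusted p 0.0459), and it was -0.012 without double-mutant replicate 2.

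SETBP1 replicate 3 differed from the mean of the other SETBP1 libraries by a log2 value of 0.85 for Fcgr4, 0.65 for Fcer1g, 0.52 for Fcgr3, 0.49 for Tyrobp, 0.47 for Fcgr1 and 0.30 for Fcgr2b, and by -0.52 for Syk. Syk has the longest summed exons of the 7, at 6027 bases, and Tyrobp and Fcer1g the shortest, at 597 and 748 bases. The part of transcript length, of cell make-up or of RNA quality in that library's values was not tested.

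Per kilobase of exon, the order of the 7 genes was much the same in the 4 groups. Exon length here merges all protein-coding transcripts of a gene, 3810 bases for Fcgr2b and 1629 for Fcgr3. It may exceed the length of the transcripts in use, which were not told apart. Fcer1g and Tyrobp led, at 509 ± 27.8 and 586 ± 59.1 normalised CPM per kilobase with empty vectors (SD, n = 3) and at 726 ± 45.7 and 515 ± 54.8 with both mutants. Their libraries overlapped with empty vectors and with SETBP1, and with NRAS and with both mutants Fcer1g lay above Tyrobp in every library. Fcgr3 followed at 260 ± 7.60 with empty vectors and 234 ± 13.4 with both mutants, and then Fcgr2b at 43.3 ± 2.41 and 55.4 ± 5.16, with no overlap between neighbours in this part of the order.

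Fcgr1, Syk and Fcgr4 formed the lower end of the order per length. With empty vectors Syk stood at 21.5 ± 0.940 normalised CPM per kilobase, Fcgr1 at 18.1 ± 3.29 and Fcgr4 at 18.0 ± 0.868, with Fcgr1 overlapping both neighbours. With SETBP1, Fcgr1 led this trio at 34.2 ± 7.14, and Fcgr4 at 20.5 ± 7.52 overlapped both Fcgr1 and Syk at 16.6 ± 3.29. With NRAS, Syk stood at 16.8 ± 2.17, Fcgr1 at 13.0 ± 3.31 and Fcgr4 at 9.79 ± 1.76, with Fcgr1 again overlapping both. With both mutants the order was Fcgr1 at 22.7 ± 1.42, Syk at 15.4 ± 1.85 and Fcgr4 at 9.33 ± 1.14, with no overlap among them. The level of Fcgr2b per kilobase was thus above that of Fcgr1 and Fcgr4 in all 4 groups.

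In RNA from a mixture of cells, fewer cells of a type and less RNA per cell cannot be told apart. Several cell types in marrow carry these receptors, and the markers of some of them changed with the mutants. Summed over 8 neutrophil markers, levels ran from 10327 to 11678 CPM with empty vectors, 4618 to 6728 with SETBP1, 5202 to 6821 with NRAS and 1709 to 2134 with both mutants. Of the 8, 6 fell with SETBP1 alone, 4 fell and 1, Cxcr2, rose with NRAS alone, and 7 fell with both mutants. Summed over 10 mast cell and basophil markers, they ran from 1475 to 1504, 808 to 1049, 573 to 964.8 and 362 to 492 in the same order, and of 9 tested 6, 8 and 7 fell and none rose. Of the 10 monocyte and macrophage markers, 3 rose and 1 fell with SETBP1 alone, 2 rose and 4 fell with NRAS alone, and 4 rose and 2 fell with both, and their summed levels ran from 4689 to 5012, 4915 to 6002, 4662 to 4863 and 4175 to 4719 CPM. Ly6c2 was the largest part of these sums in every library, so they say little of the other markers. With SETBP1 alone, NRAS alone and both mutants, 14.9%, 32.5% and 40.6% of all genes tested passed. Summed over 7 NK cell markers, nearly all from Nkg7, levels ran from 373 to 416 CPM with empty vectors, 220 to 269 with SETBP1, 109 to 113 with NRAS and 46.6 to 51.7 with both mutants, with Ncr1 at 0 throughout. The other lists follow in the same order of groups. Sums of 8 B cell markers ran from 20.3 to 21.6, 19.9 to 23.5, 13.3 to 16.8 and 7.93 to 9.37 CPM. Dendritic cell sums ran from 207 to 243, 332 to 450, 283 to 348 and 276 to 360 CPM. Eosinophil sums ran from 188 to 329, 14.0 to 238, 133 to 263 and 27.2 to 110 CPM. Megakaryocyte sums ran from 204 to 241, 284 to 617, 139 to 198 and 240 to 268 CPM. Erythroid sums ran from 9.40 to 10.8, 1.66 to 6.50, 5.55 to 8.52 and 1.21 to 2.30 CPM. The part of these shifts in the values of the 7 genes was not tested.

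Other receptors for immunoglobulin were sparse. Of 12 listed genes, 5 had enough counts to be tested, and Fcer2a, Pigr and Fcamr had 0 counts in every library. Of the 5, 2 fell with SETBP1 alone, 3 with NRAS alone and 3 with both mutants, and none rose, where 14.9%, 32.5% and 40.6% of all genes passed. Fcer1a, the IgE-binding chain that pairs with Fcer1g on mast cells and basophils, stood at 117 normalised CPM with empty vectors, 52.5 with SETBP1, 11.4 with NRAS and 3.64 with both mutants (group means). Its log2 change against empty was -1.15 (SE 0.19) with SETBP1, -3.36 (SE 0.21) with NRAS and -5.003 (SE 0.25) with both, while its partner Fcer1g did not fall in any comparison. Ms4a2, the beta chain of the same IgE receptor, changed by -1.37, -2.54 and -3.78 in that order, and Fcgrt, the neonatal receptor that recycles IgG, by -1.96 with NRAS and -1.61 with both mutants. Fcer1a and Ms4a2 are also in the mast cell and basophil list above.

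Some receptors that signal through Fcer1g or Tyrobp had larger changes than the chains themselves. Of 19 tested, 4 rose and 3 fell with SETBP1 alone (median log2 change 0.34, against -0.01 over all genes), 7 rose and 2 fell with NRAS alone (median -0.05, all genes -0.01), and 8 rose and 2 fell with both mutants (median 0.36, all genes -0.01). The shares of all genes that passed were 14.9%, 32.5% and 40.6% in the same order. Adding SETBP1 to NRAS moved 0 of 19 in edgeR, where 1.91% of all genes passed. Without SETBP1 replicate 3, 4 rose and 5 fell with SETBP1 alone (median 0.03), and adding SETBP1 to NRAS raised 4 and lowered 2, where 15.3% and 7.52% of all genes passed. The C-type lectins Clec4d and Clec4n, which recognise fungal and mycobacterial sugars through Fcer1g, rose with SETBP1 by 1.78 (SE 0.23) and 1.73 (SE 0.27), and Clec4e, the receptor also called Mincle, by 1.28 (SE 0.21). In the fit lacking that library these rises were 1.38, 1.24 and 0.88, all past the threshold. With NRAS, Clec4d rose by 2.71 (SE 0.23), Clec5a, which pairs with Tyrobp, by 2.08 (SE 0.10), and Trem1, an amplifier of myeloid inflammation that pairs with Tyrobp, by 2.07 (SE 0.14), while Trem3 fell by 0.44 on the log2 scale (SE 0.10). With SETBP1 alone Trem1 fell by 0.52 (SE 0.14) and Itgam, the integrin chain of complement receptor 3, by 0.70 (SE 0.13).

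Of 28 tested kinases and adaptors that act beside or after Syk, 2 rose and 5 fell with SETBP1 alone (median log2 change -0.14, all genes -0.01), 7 rose and 8 fell with NRAS alone (median 0.03) and 6 rose and 7 fell with both mutants (median -0.01), where 14.9%, 32.5% and 40.6% of all genes passed. When SETBP1 replicate 3 was left out, 1 rose and 8 fell with SETBP1 alone, 10 rose and 9 fell with NRAS alone, and 9 rose and 10 fell with both, where 15.3%, 47.0% and 53.7% of all genes passed. Fyn, a Src-family kinase, rose with NRAS by 1.42 (SE 0.11), and the scaffold genes Lat2 and Lcp2 rose by 1.39 (SE 0.18) and 0.78 (SE 0.07). Hcst, a short adaptor that recruits PI3-kinase, fell by 1.05 (SE 0.20) with NRAS, Pik3cd, a catalytic PI3-kinase subunit, by 0.60 (SE 0.13) and Card9, which links Syk to NF-kB, by 0.54 (SE 0.17). With SETBP1 alone Lat2 rose by 0.71 (SE 0.17; 0.38 without SETBP1 replicate 3), and Plcg2, the phospholipase activated after Syk, fell by 0.56 (SE 0.12). Adding SETBP1 to NRAS moved 1 of 28, Lat, which fell by 1.05 (SE 0.16).

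The other inhibitory receptors and phosphatases did not share 1 direction with Fcgr2b. Of 26 tested, 1 rose and 2 fell with SETBP1 alone (median log2 change 0.02), 9 rose and 7 fell with NRAS alone (median 0.14) and 11 rose and 7 fell with both mutants (median 0.18), against an all-gene median of -0.01 each time and 14.9%, 32.5% and 40.6% of all genes past the threshold. Leaving out SETBP1 replicate 3, 1 rose and 4 fell with SETBP1 alone, and adding SETBP1 to NRAS, which moved 0 of 26 with all libraries, raised 4 and lowered 3, where 15.3% and 7.52% of all genes passed. Dok2, an adaptor that restrains Ras signalling, rose with NRAS by 2.31 (SE 0.14), the ITIM receptor gene Lilrb4a by 1.74 (SE 0.14) and Cd200r1, the receptor for CD200, by 1.32 (SE 0.14). The ITIM receptor genes Siglece, Pirb and Clec4a2 fell with NRAS by 2.06 (SE 0.21), 1.60 (SE 0.20) and 1.56 (SE 0.14). With SETBP1 alone Lilrb4a rose by 0.64 (SE 0.14; 0.41 without SETBP1 replicate 3) and Clec4a2 fell by 0.52 (SE 0.13). Unless given as without SETBP1 replicate 3, the values of these lists are from the edgeR fit of all 12 libraries.

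**Figure D4:**
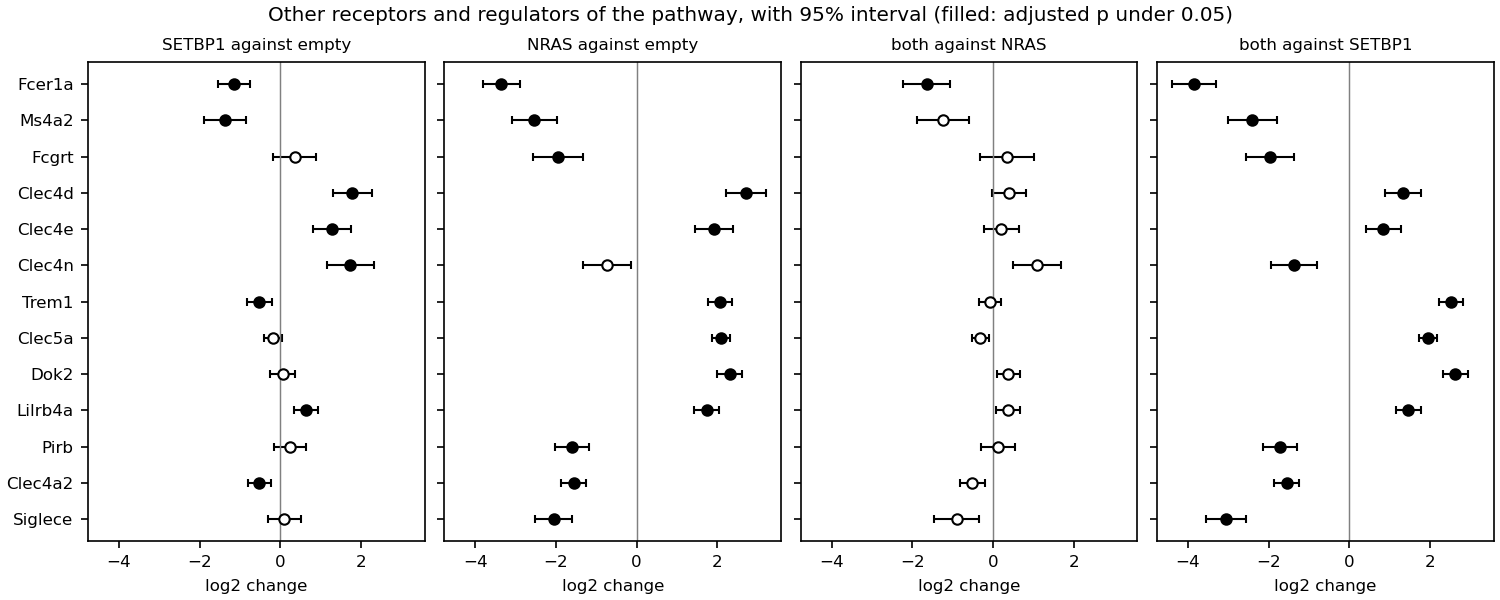
Log2 change (x axis) with its 95% interval for 13 genes of the listed pathway groups, 1 panel per comparison, with filled points for an adjusted p under 0.05. Fcer1a is lower in all 4 panels, from -1.15 to -3.85, and with NRAS the adaptor gene Dok2 and the receptor gene Lilrb4a (2.31 and 1.74) lie opposite to Pirb, Clec4a2 and Siglece.

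The genes whose pattern over the 12 libraries was most like that of each member were taken from all genes tested, by the root mean square difference of centred log2 CPM (smaller is more alike, described with no test). For Fcgr4 the closest were Dok3 (0.09), H2-DMb1 (0.13) and Rnf166 (0.15), and for Fcgr1 they were Pou2f2 (0.21), Adap2 (0.21) and Fabp5 (0.22). For Fcgr3 they were Erlin1 (0.05), Gltp (0.06) and Ccm2 (0.07), and for Fcgr2b they were Nupl2 (0.08), Rala (0.08) and Gtpbp8 (0.08). For Fcer1g they were Psmb6, Slc25a4 and Txn2, for Tyrobp Vps25, Limd2 and Gng10, and for Syk Mia3, Tbc1d9b and Znfx1, between 0.06 and 0.10. Among the 7 genes, Fcgr3 and Tyrobp (0.15) and Fcgr2b and Fcer1g (0.15) were the most alike, and Fcgr1 and Syk (0.68) the least. Genes that vary little also lie close by this measure. The root mean square about a gene's own mean was 0.17 for Fcgr3, 0.18 for Fcgr2b, 0.22 for Tyrobp and 0.27 for Fcer1g. Small differences alone therefore do not show that genes vary together.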

How the data were processed

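Total RNA of 12 libraries, made per the labels with a SMART-Seq kit for very low input, was sequenced. The deposited file is a single table of raw counts, whole numbers listed by gene symbol for each library. Per the submitters' processing notes STAR, DESeq2 and the mm10 build were used. The counting tool, annotation, strand setting and treatment of reads with several matches are not given in the sources used here. Libraries were grouped by the labelled transduction.

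Counts were scaled by trimmed mean of M-values (TMM) and tested with edgeR 4.0.16 (quasi-likelihood F test, R 4.3.3) on all 12 libraries as 4 group means, after filterByExpr at a minimum count of 10 and total of 15. P-values were adjusted by Benjamini-Hochberg over the 10993 genes, with a threshold of 0.05. Log2 CPM and the receptor ratios used a prior count of 0.5, and ratios were tested by exact permutation. The scripts were tested on simulated data. Alternatives were DESeq2 1.42.0, limma-voom (limma 3.58.1), other scalings, filters and thresholds, a replicate block, only the groups compared, a prior count of 2 and leaving out each library.

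The members and the pathway and marker lists were chosen with earlier results of these data known. All 7 members are named. From each list the text names at most 3 genes per direction and comparison, those with the largest change past the threshold, no overlap between groups and 50 or more counts on average in the higher group; the likeness rule takes the 3 closest genes. Same-numbered libraries did not deviate together (18 pairs, correlations -0.11 to 0.09), so numbers were not used as pairs. Gene positions and transcripts come from GENCODE for mm10, and promoter windows from RefSeq, GRCm38.p6; Tyrobp had no window. Intervals in the text are at 95%.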

Additional observations from a re-analysis of the deposited data

How the results depend on the processing

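Of 42 values of a member in a comparison, 9 kept direction and side of the threshold in every alternative and 12 changed sign in at least 1. The falls of Fcgr4 with NRAS kept direction and side in all 21 alternatives. The ratios had only 13 alternatives, a prior count of 2 and leaving out each library, and 5 of the 6 ratio results kept theirs in these. The number of members moved, 2 for SETBP1 against empty, was 1 with limma-voom, 1 at an adjusted p under 0.01 and 0 with only the groups compared, where 1781, 379 and 110 of all genes passed. For NRAS against empty it was 1, and 4 with library totals only, 2 with a mean count of at least 50 and 6 with only the groups compared, where 3644, 3133 and 5261 of all genes passed. For both mutants against empty it was 4, and 6 with library totals only, 7 with only the groups compared and 2 at 0.01, where 4564, 6059 and 3117 of all genes passed. For SETBP1 on top of NRAS it was 1, and 0 with limma-voom, with a mean count of at least 50 and at 0.01, and 3 with only the groups compared, where 184, 189, 86 and 883 of all genes passed. For NRAS on top of SETBP1 it was 3, and 1 at 0.01, where 3043 of all genes passed. Leaving out 1 library gave 0 to 3, 1 to 5, 3 to 5, 0 to 3 and 1 to 5 members in that order. Of all genes, 390 to 3191, 2681 to 5224, 3658 to 5969, 93 to 836 and 3681 to 5166 then passed. With limma-voom, library totals only or the threshold of 0.01, the same 10993 genes were tested as before. The mean-count filter, the fits of only the groups compared and those without a library chose the genes to test anew. Their numbers of passing genes are thus not shares of 10993 and cannot be compared with the others as shares. The Fcgr4 to Fcgr2b ratio by SETBP1 ranged from -0.34 to -0.19 on leaving out a library. The cause of these shifts was not tested.

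Signs turned for Fcgr2b in NRAS against empty, to -0.070 with library totals and -0.0034 with a mean count of at least 50, and for Fcer1g in NRAS on top of SETBP1, to -0.032 and -0.0012. On leaving out a library, log2 changes ran across 0 for Fcgr3 (-0.21 to 0.12) and Fcgr4 (-0.15 to 0.35) in SETBP1 against empty, Fcgr2b (-0.026 to 0.059) in NRAS against empty, Fcgr4 (-0.21 to 0.021) and Tyrobp (-0.10 to 0.050) in SETBP1 on top of NRAS, and Fcgr3 (-0.28 to 0.061) and Fcer1g (-0.15 to 0.29) in NRAS on top of SETBP1. For the interaction they ran from -0.28 to 0.10 for Fcgr1, -0.017 to 0.31 for Fcgr3, -0.41 to 0.089 for Fcgr4, -0.0064 to 0.19 for Fcgr2b and -0.33 to 0.092 for Fcer1g.

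With the replicate number as a block, 1 member was moved by SETBP1 against empty and 0 by SETBP1 on top of NRAS, where 1177 and 164 of all genes passed. The other counts of members were as without the block. The labels do not say that a number pairs libraries, and in 8 of 36 comparisons of a library with another group the same-numbered library correlated best. Over all genes, calls for SETBP1 against empty numbered 1633, and 110 to 3191 over the alternatives, those for SETBP1 on top of NRAS 210 and 86 to 883, and those for the interaction 5 and 1 to 110; in NRAS against empty they numbered 3576 and 2289 to 5261, and in NRAS on top of SETBP1 4661 and 3043 to 5166. With library totals only, the median change of all genes for both mutants against empty shifted by -0.12, and the calls split into 1656 higher and 2908 lower in place of 2282 and 2180. For NRAS against empty they split into 1379 and 2265 in place of 1868 and 1708, and for NRAS on top of SETBP1 into 1720 and 2888 in place of 2293 and 2368. With 73 to 310 counts per library, Fcgr4 was the member with the widest intervals.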
